A study of Mus musculus with 4 samples.

Results

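Capillary endothelial cells of the aortic wall were picked out of single-cell RNA libraries made from sorted endothelial cells of the mouse aorta. A cell was kept when it held at least 500 UMIs (unique molecular identifiers, each counting 1 captured RNA molecule) and at most 15% UMIs of mitochondrially encoded genes. A kept cell was taken as capillary when at least 4 of the 8 genes Gpihbp1, Rgcc, Lpl, Car4, Timp4, C1qtnf9, Cd300lg and Tcf15 had a UMI and fewer than 2 of the 4 lymphatic genes Ccl21a, Mmrn1, Lyve1 and Reln did. The rule found 146 cells among 1973 kept aortic cells and 3256 kept cells in the whole series. Of these, 95 came from the KO aorta and 51 from the WT aorta.

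The KO mice lacked Oct4, a pluripotency factor whose gene symbol is Pou5f1, in endothelial cells, and the WT mice had an intact Oct4 gene. Mice of both genotypes were female, of the C57/B6J strain, lacked Apoe, carried an endothelial eYFP lineage tracer and had eaten a Western diet for 5 weeks; their ages were not given. Tissue came from 3 KO and 2 WT mice, and 1 library was made for each genotype from the aorta (arch, thoracic and abdominal parts) and from the left lung lobe. The eYFP gate of the sort was set with littermates described only as Cdh5-negative. All buffers held actinomycin D, which blocks transcription, at 1 µg/mL. There is 1 library per group and cells of a library are not replicates, so no test was run and all intervals are 95% intervals that cover counting error only.

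Capillaries are the exchange vessels of a tissue. In fat and muscle, capillary endothelial cells anchor lipoprotein lipase on their luminal surface through GPIHBP1, so that triglyceride in passing lipoproteins is split there, and they take up and pass on fatty acids with CD36 and fatty acid binding proteins. Large arteries are too thick to be fed from the lumen alone, and their outer wall is supplied by small vessels, the vasa vasorum, which include capillaries. Fat around the aorta has capillaries too. The sorted cells carry no record of where they lay.

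The capillary cells were less deeply covered than the rest. Their sums held 162968 UMIs in the KO aorta and 66533 UMIs in the WT aorta, and the sums of the other kept cells held 4255864 and 923224 UMIs. A capillary cell had a median of 1498 UMIs and 799 genes in the KO library and of 1091 UMIs and 612 genes in the WT library, while other cells had medians of 2408 UMIs in KO and 2299 UMIs in WT. The median mitochondrial share of capillary cells was 4.70% in KO and 5.95% in WT, against 3.93% and 4.27% in other KO and WT cells. For a gene with 0 UMIs a limit of 3 counts per library was used, which corresponds to 3.16% of KO and 5.88% of WT capillary cells with a UMI and to 18.4 CPM (the gene's UMIs per 1000000 UMIs of the sum) in KO and 45.1 CPM in WT; it is not the upper bound of an exact Poisson interval. No barcode of an aortic capillary cell occurred in another library.

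Capillary cells made up 6.05% of kept cells in the KO aorta (95% exact binomial interval 4.93 to 7.35%) and 12.6% in the WT aorta (9.55 to 16.3%). The KO share was 0.480 times the WT share (0.338 to 0.688). The shares depended on depth. Among cells with at least 1000 UMIs, which leaves out 15 KO and 22 WT capillary cells, they were 5.63% in KO and 8.73% in WT, and with those cells thinned to 1000 UMIs before the rule was applied they were 4.79% in KO and 8.73% in WT. These are shares of sorted and sequenced cells of 1 library each, so a difference between mice or dissections cannot be told apart from a difference between genotypes. Of the cells with 4 or more of the 8 genes, 3 KO cells and 0 WT cells were left out because of lymphatic genes.

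**Figure D1:**
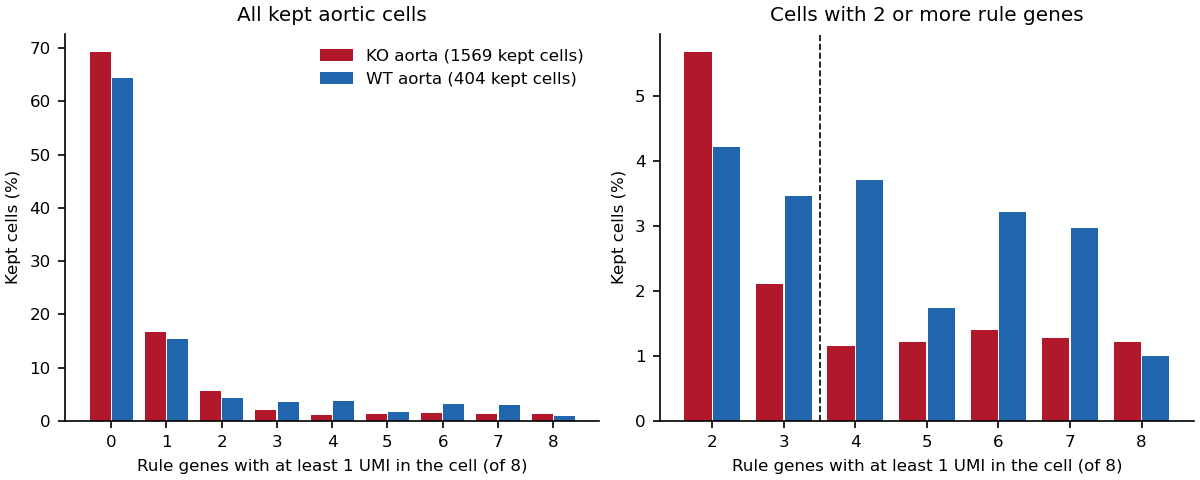
Percent of kept aortic cells (y axis) by how many of the 8 rule genes had at least 1 UMI (x axis), for the KO aorta (red, 1569 cells) and the WT aorta (blue, 404 cells); the right panel enlarges cells with 2 or more, the dashed line marks the cut of the rule, and the 3 KO cells left out as lymphatic are among those at 4. Most cells hold none of the 8 genes, and past the line cells are spread over 4 to 8 genes in both libraries.

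The number of rule genes per cell had no gap at the cut. Leaving out cells with lymphatic genes, 19 KO and 10 WT cells held 3 of the 8 genes and lay just outside, and 15 KO and 15 WT cells held 4 and lay just inside. Fabp4, which the rule did not use, stood at 14187 CPM in KO and 15471 CPM in WT cells with 3 rule genes, and at 22775 CPM in KO and 27126 CPM in WT cells with 4. In cells with all 8 genes, 19 KO and 4 WT cells, it reached 43249 CPM in KO and 44244 CPM in WT. In cells with none it was 1024 CPM in KO and 958 CPM in WT.

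The rule genes themselves are given as a description, since they chose the cells. Gpihbp1, the anchor of lipoprotein lipase (mm10, chromosome 15, 75596628 to 75599481), had 3896 CPM in KO capillary cells and 4254 CPM in WT capillary cells, against 97.0 CPM in other KO cells and 112 CPM in other WT cells. Lpl, the lipase itself (chromosome 8, 68880491 to 68907448), had 1184 CPM in KO and 2270 CPM in WT capillary cells, against 43.2 and 27.1 CPM in other KO and WT cells. Most capillary cells held UMIs of both, Gpihbp1 in 92 of 95 KO and 49 of 51 WT capillary cells and Lpl in 73 KO and 41 WT capillary cells.

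Rgcc, a cell cycle regulator, had 2000 CPM in KO and 2961 CPM in WT capillary cells, against 14.1 CPM in other KO cells and 23.8 CPM in other WT cells. Car4, a membrane-bound carbonic anhydrase of capillary surfaces (chromosome 11, 84957786 to 84966044), was the most restricted of the 8, with 920 CPM in KO and 1067 CPM in WT capillary cells and a UMI in only 2 of 1474 other KO cells and 3 of 353 other WT cells. Tcf15, a transcription factor, had 798 CPM in KO and 736 CPM in WT capillary cells, against 19.0 and 13.0 CPM in other KO and WT cells. C1qtnf9 had 951 CPM in KO and 1187 CPM in WT capillary cells, and Cd300lg had 865 CPM in KO and 932 CPM in WT capillary cells; in other cells of either library both stood between 19.0 and 30.3 CPM.

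Timp4, a tissue inhibitor of metalloproteinases, was the one rule gene at least 2-fold apart between the genotypes. It had 1270 CPM in KO and 571 CPM in WT capillary cells (KO over WT 2.22, 1.57 to 3.23), with a UMI in 67 of 95 KO cells and 24 of 51 WT cells. When cells were chosen by at least 4 of the other 7 genes, so that Timp4 took no part in its own choice, it had 1260 CPM in KO and 497 CPM in WT capillary cells. In other aortic cells it had 13.6 CPM in KO and 30.3 CPM in WT, from 58 and 28 UMIs, under the minimum level for a comparison. Those sums include cells that just missed the rule, and their part was not tested.

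Lymphatic endothelial cells shared some of the 8 genes. Among cells with at least 2 of the 4 lymphatic genes, 140 in KO and 38 in WT, Gpihbp1 was detected in 92 KO and 19 WT cells, Lpl in 51 KO and 4 WT cells, and Cd300lg in 37 KO and 12 WT cells, at median depths of 1880.5 UMIs in KO and 1623.5 UMIs in WT. Car4 was detected in none of them. In the capillary cells Ccl21a had 2 UMIs in KO and 0 in WT, Lyve1 had 1 in KO and 0 in WT, and Mmrn1 and Reln had 0 in both. Pou5f1, the deleted gene, had 0 UMIs in the capillary cells of both genotypes, and 1 UMI in all other KO cells and 0 in all other WT cells, so the deletion could not be checked in these libraries.

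Endothelial genes that the rule did not use were present throughout. Cdh5, the VE-cadherin gene, had 1350 CPM in KO and 1368 CPM in WT capillary cells, against 449 CPM in other KO and 439 CPM in other WT cells. Cldn5, a tight junction protein, had 2270 CPM in KO and 3998 CPM in WT capillary cells, against 1120 and 1273 CPM in other KO and WT cells. Pecam1 was lower in capillary cells, with 1227 CPM in KO and 1172 CPM in WT, against 2721 CPM in other KO and 3035 CPM in other WT cells.

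Markers of some other cell types were absent or nearly so. Those of fat cells stood above the level of other aortic cells in both libraries. Those of pericytes did so in KO, with too few UMIs in WT to tell. All 9 cardiomyocyte markers were at 0 in the capillary cells of both libraries, and 10 leukocyte markers had 2 UMIs in KO and 0 in WT in sum. Of 8 pericyte markers Rgs5 had 23 UMIs in 11 KO cells and 6 UMIs in 5 WT cells, while Pdgfrb, Abcc9, Cspg4 and Higd1b were at 0 in both; the list summed to 178 CPM in KO and 90.2 CPM in WT capillary cells, against 47.2 CPM in other KO and 54.2 CPM in other WT cells. The 8 fibroblast markers had 90 UMIs in KO, 86 of them of Dcn, and 0 in WT. The KO UMIs lay in 6 capillary cells, of which only 1 held 3 or more, so nearly all were in that cell. The 7 smooth muscle markers had 92.0 CPM in KO and 135 CPM in WT capillary cells, against 1799 and 1346 CPM in other KO and WT cells. The 4 brown adipocyte markers had a UMI in 22.1% of KO and 31.4% of WT capillary cells, against 0.611% of other KO and 1.42% of other WT cells, and 8 adipocyte markers had 73.6 CPM in KO and 150 CPM in WT capillary cells, against 2.82 and 4.33 CPM in other KO and WT cells.

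The comparison of capillary cells with all other kept aortic cells was made within each library, for 2588 genes whose 2 sums averaged 50 CPM or more and held 30 UMIs or more together in each library. At least 2-fold higher in capillary cells in both libraries were 213 genes, 8.23% of those compared, and at least 2-fold lower in both were 255 genes, 9.85%. In the KO library alone 10.7% were higher and 12.8% lower, and in the WT library alone 14.9% and 20.3%. Only 1 gene was at least 2-fold apart in opposite directions. Since the filter is passed by a high level in either sum, and since the cells were chosen by 8 of these genes, the counts that follow describe the cells and carry no test.

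**Figure D2:**
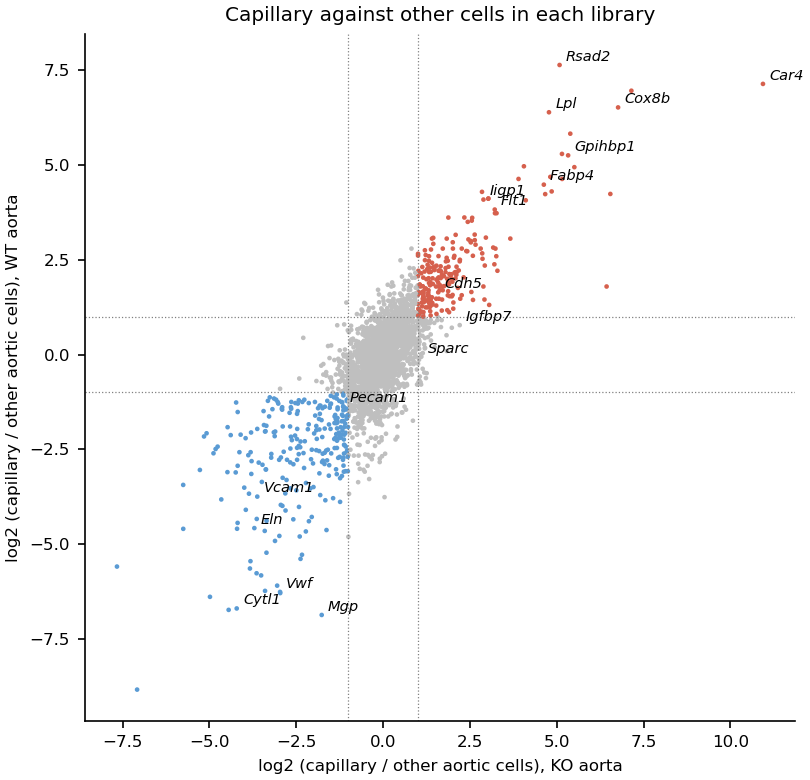
Each point is 1 of 2588 genes, with log2 of capillary over other cells in the KO aorta (x axis) and in the WT aorta (y axis), a sum of 0 UMIs being set to 3 UMIs; red and blue mark genes at least 2-fold higher or lower in capillary cells in both libraries, and dotted lines mark 2-fold. Rule genes such as Car4 and Lpl and the genes Rsad2, Cox8b and Fabp4 lie at the upper right, and Cytl1, Vwf and Mgp at the lower left.

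Fatty acid genes stood far above the other aortic cells. Fabp4, a cytosolic fatty acid binding protein of capillary endothelium and adipocytes (chromosome 3, 10204088 to 10208576), had 36584 CPM in KO and 34810 CPM in WT capillary cells and was found in every one of them, against 1480 CPM in other KO cells and 1560 CPM in other WT cells. Capillary cells were 24.7-fold higher in KO (23.9 to 25.6) and 22.3-fold higher in WT (20.9 to 23.9). The 146 capillary cells thus held 48.6% of all Fabp4 UMIs of kept KO aortic cells and 61.7% of those of kept WT aortic cells.

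Cd36, the fatty acid translocase, had 2909 CPM in KO and 3427 CPM in WT capillary cells, against 103 CPM in other KO cells and 133 CPM in other WT cells. Scarb1, the scavenger receptor for high-density lipoprotein, had 405 CPM in KO and 436 CPM in WT capillary cells, against 23.5 and 26.0 CPM in other KO and WT cells. Meox2, a homeobox transcription factor that in mouse heart endothelium acts with Tcf15 on fatty acid uptake, had 301 CPM in KO and 316 CPM in WT capillary cells, against 31.3 CPM in other KO and 23.8 CPM in other WT cells.

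Of the 25 listed genes of fatty acid uptake and handling, 11 were compared; 7 were at least 2-fold higher in capillary cells in both libraries (Cd36, Fabp4, Scarb1, Meox2, Fabp5, Angptl4 and Mgll) and 0 were 2-fold lower. Their median log2 ratio was 2.89 in KO and 2.35 in WT, beside -0.07 in KO and -0.09 in WT over all genes compared. Pparg, the nuclear receptor of fat storage, had too few UMIs in WT to be compared. It had 319 CPM in KO and 120 CPM in WT capillary cells, against 4.23 and 4.33 CPM in other KO and WT cells.

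Of 6 compared genes of a list of solute carriers and transporters, 1 was at least 2-fold higher in both libraries, Slc6a6, and 1 was lower, Slc29a1. Of 3 compared genes of carbonic anhydrases and water or gas transport, Car4 of the rule and Aqp1 were higher and Car8 was lower. Aqp7 and Kcna5 were picked after their values were seen. Aqp7, a glycerol channel, had 442 CPM in KO and 316 CPM in WT capillary cells, against 2.35 CPM in other KO and 6.5 CPM in other WT cells. Kcna5, a voltage-gated potassium channel, had 209 CPM in KO and 120 CPM in WT capillary cells, against 0.940 and 2.17 CPM in other KO and WT cells. Both fell short of the minimum count in 1 library and so are not among the 213. Aqp1, the water channel, had 3044 CPM in KO and 4765 CPM in WT capillary cells, against 1520 CPM in other KO and 1137 CPM in other WT cells.

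Cox8b, a subunit of cytochrome c oxidase known from muscle and brown fat, ranked highest of the genes outside the rule, going by the interval bound nearest to 1 in the weaker library. It had 153 CPM in KO and 496 CPM in WT capillary cells, against 1.41 CPM in other KO and 5.42 CPM in other WT cells. These are small counts, 25 UMIs in 17 of 95 KO cells and 33 UMIs in 15 of 51 WT cells. Its KO over WT ratio in capillary cells was 0.309 (0.176 to 0.536). The list of 4 brown adipocyte markers to which it belongs had 33 UMIs in KO and 44 UMIs in WT capillary cells, with Elovl3 at 0 in both, and 8 adipocyte markers had 12 UMIs in KO and 10 UMIs in WT, with Plin1, Plin4, Retn and Lep at 0 in both. The part of RNA from fat cells in the levels of Cox8b and Fabp4 was not tested.

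Some receptors of the vascular endothelial growth factor, Tie and apelin axis were also higher. Flt1, vascular endothelial growth factor receptor 1, had 657 CPM in KO and 752 CPM in WT capillary cells, against 70.7 CPM in other KO and 53.1 CPM in other WT cells. Kdr, vascular endothelial growth factor receptor 2, had 374 CPM in KO and 331 CPM in WT capillary cells, against 51.5 and 57.4 CPM in other KO and WT cells. With Nrp2, a coreceptor, 3 of 6 genes compared of this axis were at least 2-fold higher in both libraries and 0 were lower, beside 8.23% and 9.85% over all genes compared. Tek, a receptor of the same list, went the other way, under 1 in both libraries but short of 2-fold.

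Among 22 compared genes of a list of capillary genes outside the rule, which shares Fabp4, Cd36 and others with the lists above, 15 were at least 2-fold higher in both libraries and 0 lower. Sparcl1, a secreted matricellular protein, had 1295 CPM in KO and 857 CPM in WT capillary cells, against 102 and 103 CPM in other KO and WT cells. Kitl, the ligand of the receptor Kit, had 380 CPM in KO and 286 CPM in WT capillary cells, against 40.4 and 41.2 CPM in other KO and WT cells. Further genes of the 15 ranked highest were Xdh, Tcim, Ablim3, Pcdh17, Itga6, Rsad2, Slfn5 and Iigp1. All 15 stayed at least 2-fold higher in both libraries under every alternative setting tried.

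Genes of interferon-exposed cells were among the highest. Rsad2, an antiviral enzyme induced by interferon (chromosome 12, 26442746 to 26456452), had 215 CPM in KO and 646 CPM in WT capillary cells, against 6.34 CPM in other KO and 3.25 CPM in other WT cells. Isg15, a ubiquitin-like protein, had 742 CPM in KO and 1653 CPM in WT capillary cells, against 103 CPM in other KO and 84.5 CPM in other WT cells. Slfn5, another interferon-induced gene (chromosome 11, 82951349 to 82964840), had 601 CPM in KO and 1533 CPM in WT capillary cells, against 73.8 and 88.8 CPM in other KO and WT cells. Of 13 compared genes of the interferon list, 7 were at least 2-fold higher in both libraries (Rsad2, Ifit1, Isg15, Iigp1, Irf1, Ifit3 and Igtp) and 1 was lower, Ifi27l2a.

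The promoters of Rsad2 and Slfn5 are shown because both genes stood out in capillary cells and the letters of an interferon-stimulated response element are present in both. That of Car4 is shown as the promoter of the most restricted rule gene. Each runs from 250 bases before to 50 bases after the gene start in RefSeq on GRCm38.p6 (Rsad2 chr12:26456403-26456702, minus strand; Slfn5 chr11:82951852-82952151, plus strand; Car4 chr11:84957504-84957803, plus strand) and is written 5′ to 3′ along the gene. The Slfn5 stretch lies inside the gene span given above, because the RefSeq start is further along the gene than the start of that span. Capitals mark matches on either strand of GAAANNGAAA in Rsad2 and Slfn5, and of the ETS core CCGGAA, which matches on both strands with an overlap, in Car4.
Rsad2: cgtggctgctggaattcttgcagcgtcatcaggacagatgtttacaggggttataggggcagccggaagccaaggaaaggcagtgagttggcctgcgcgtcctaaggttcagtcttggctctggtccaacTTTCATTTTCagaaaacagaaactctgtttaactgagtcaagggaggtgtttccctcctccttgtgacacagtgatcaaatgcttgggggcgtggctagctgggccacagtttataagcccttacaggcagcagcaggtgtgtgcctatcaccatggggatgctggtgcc
Slfn5: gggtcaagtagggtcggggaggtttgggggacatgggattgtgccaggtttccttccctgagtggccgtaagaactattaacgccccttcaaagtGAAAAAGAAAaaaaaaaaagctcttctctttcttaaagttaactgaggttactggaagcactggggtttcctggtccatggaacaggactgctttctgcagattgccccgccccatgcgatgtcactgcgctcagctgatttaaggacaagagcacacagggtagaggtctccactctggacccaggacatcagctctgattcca
Car4: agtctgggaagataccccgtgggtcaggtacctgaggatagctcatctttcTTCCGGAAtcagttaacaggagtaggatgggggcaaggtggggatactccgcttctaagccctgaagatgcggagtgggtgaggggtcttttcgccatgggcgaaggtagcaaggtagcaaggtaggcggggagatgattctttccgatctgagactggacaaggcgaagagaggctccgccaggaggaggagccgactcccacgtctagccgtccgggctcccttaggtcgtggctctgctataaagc

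The response element letters GAAANNGAAA occurred on either strand in 3.49% of 27025 RefSeq promoters of the same length, and CCGGAA in 15.2%. The element had 1 match in Rsad2 and in Slfn5, 2 in Ifit1, 2 in Ifit3 and 3 in Isg15, and 0 in Irf7, Ifit2 and Oasl2. A match is a description of letters and shows no binding.

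Early response genes also stood higher in capillary cells. Of 16 compared immediate early and heat shock genes, 6 were at least 2-fold higher in both libraries (Hspa1a, Btg2, Egr1, Junb, Atf3 and Zfp36) and 0 lower. Junb had 2712 CPM in KO and 4614 CPM in WT capillary cells, against 985 CPM in other KO and 926 CPM in other WT cells. Cdkn1a, an inhibitor of the cell cycle, had 1608 CPM in KO and 2871 CPM in WT capillary cells, against 293 and 350 CPM in other KO and WT cells. The lower depth and higher mitochondrial share of the capillary cells went with these levels, and their part was not tested.

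Transcription factors split. Of 19 compared endothelial factors, 8 were at least 2-fold higher in both libraries (Meox2, Ets2, Ets1, Fli1, Id1, Tcf4, Mef2c and Sox7) and 3 were lower (Gata6, Meis2 and Foxp1). Ets1 had 264 CPM in KO and 195 CPM in WT capillary cells, against 52.9 and 47.7 CPM in other KO and WT cells. Meis2, a homeobox factor, had 0 UMIs in capillary cells of both libraries, against 106 CPM in other KO and 109 CPM in other WT cells, at least 5.76-fold lower in KO and at least 2.43-fold lower in WT with a limit of 3 UMIs per library.

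Genes of the large-artery inner lining were among the lowest. Cytl1, a secreted cytokine-like protein (chromosome 5, 37735519 to 37739820), had 669 CPM in KO and 150 CPM in WT capillary cells, against 12407 CPM in other KO and 15574 CPM in other WT cells. Eln, elastin, had 79.8 CPM in KO and 45.1 CPM, which is 3 UMIs, in WT capillary cells, against 1041 and 1076 CPM in other KO and WT cells. Of 14 compared genes of the large-artery list 11 were at least 2-fold lower in both libraries and 0 higher, with medians of -3.29 in KO and -3.45 in WT (log2).

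Most compared venous and haemostatic genes were low as well. Vwf, von Willebrand factor (chromosome 6, 125546774 to 125686679), had 129 CPM in KO capillary cells and 15 CPM, which is 1 UMI, in WT capillary cells, against 1006 CPM in other KO and 1151 CPM in other WT cells. Vcam1, an adhesion molecule for leukocytes, had 147 CPM in KO and 90.2 CPM in WT capillary cells, against 1812 and 1210 CPM in other KO and WT cells. Of 11 compared venous genes 8 were at least 2-fold lower in both libraries and 0 higher, beside 9.85% lower and 8.23% higher over all genes compared. Ephb4 and Prcp of the venous list were higher in both libraries, but under 2-fold. Of 6 compared haemostatic genes 5 were at least 2-fold lower (Vwf, Thbs1, Procr, Anxa2 and Plat) and 0 higher. Vwf is on both lists, and Vcam1 is on the venous and large-artery lists.

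The arterial list was mixed, with 2 of 14 compared genes at least 2-fold higher in both libraries and 7 lower. Dll4, a Notch ligand of arterial and sprouting cells, had 135 CPM in KO and 165 CPM in WT capillary cells, against 29.1 and 29.3 CPM in other KO and WT cells. Sema3g was the other one higher. Bmx, a kinase of arterial endothelium, had 92.0 CPM in KO and 15 CPM, which is 1 UMI, in WT capillary cells, against 478 CPM in other KO and 629 CPM in other WT cells. Gja4 and Gja5, gap junction genes of arteries, were at 0 UMIs in WT capillary cells and at 55.2 and 18.4 CPM in KO capillary cells, against 243 and 192 CPM in other KO cells and 161 and 183 CPM in other WT cells.

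Glycolysis showed neither, with 0 of 9 compared genes at least 2-fold apart in both libraries in either direction. Klf2, the factor induced by laminar flow, differed little, with 2283 CPM in KO and 2285 CPM in WT capillary cells, against 2052 CPM in other KO and 1665 CPM in other WT cells. Nos3, endothelial nitric oxide synthase, was lower, with 67.5 CPM in KO and 45.1 CPM in WT capillary cells, against 154 and 195 CPM in other KO and WT cells. The WT capillary value is 3 UMIs, the size of the limit used for a sum of 0.

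**Figure D3:**
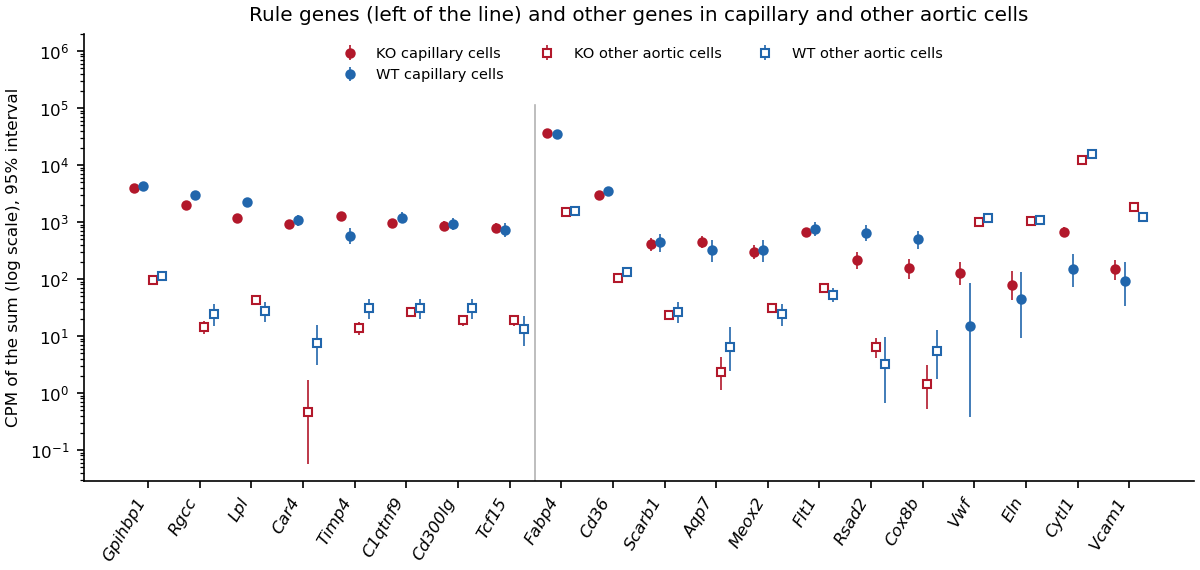
CPM of the sum on a log axis with exact Poisson 95% intervals for the 8 rule genes (left of the grey line) and 12 other genes, in KO and WT capillary cells (filled circles, red and blue) and in other KO and WT aortic cells (open squares, red and blue). From Fabp4 to Cox8b the capillary sums lie above those of other cells in both libraries, and from Vwf to Vcam1 they lie below.

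**Figure D4:**
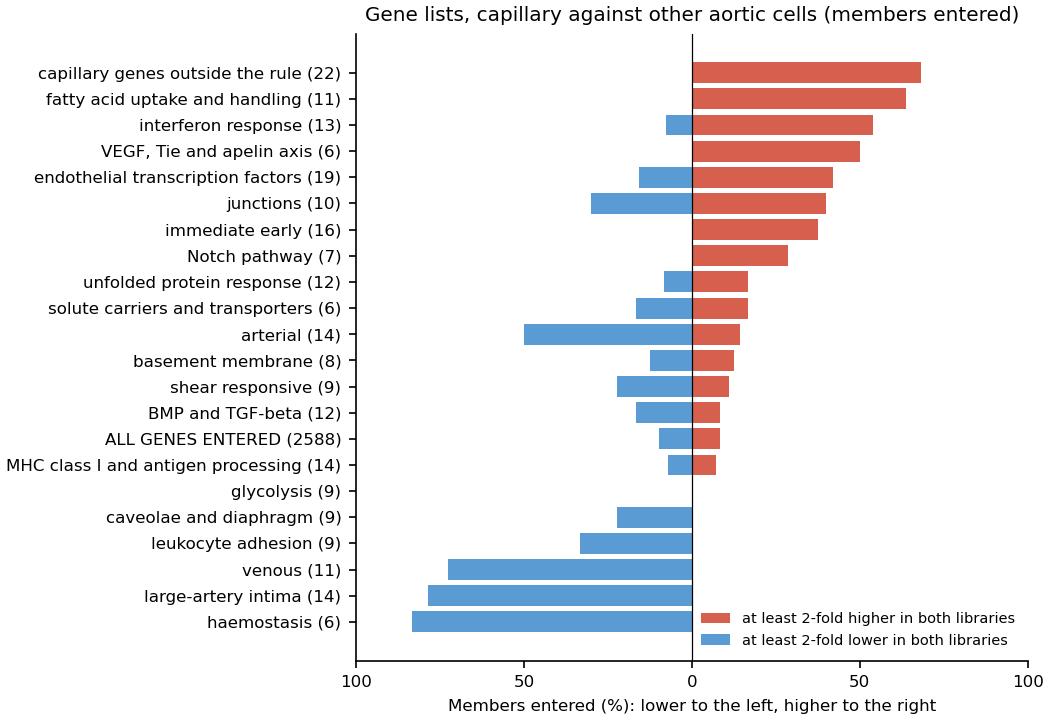
Percent of the compared members of each gene list (number in brackets) that were at least 2-fold higher (red, to the right) or lower (blue, to the left) in capillary than in other cells in both libraries, for lists with 6 or more such members. Over all 2588 genes 8.23% were higher and 9.85% lower; capillary, fatty acid and interferon genes lean right, and venous, large-artery and haemostatic genes lean left.

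The comparison of genotypes within the capillary cells had 1136 genes with enough UMIs. At least 2-fold higher in KO than in WT capillary cells were 92 genes, 8.1% of those compared, and at least 2-fold lower were 59 genes, 5.19%. The counting interval left out 1 for 69 of the higher genes, 6.07% of those compared, and 56 of the lower ones, 4.93%. In the other aortic cells, whose sums are far larger, 0.537% of 2977 genes were at least 2-fold higher in KO and 0.537% lower. Among the 1060 genes compared in both kinds of cells the shares were 8.02% higher and 4.72% lower in capillary cells, and 0.377% and 0.377% in other cells. The sums of 95 KO and 51 WT cells are small, and the larger share in capillary cells includes counting error. In simulated capillary sums where some genes were raised 3-fold, 6.09% of 985 unchanged genes were at least 2-fold apart in either direction. KO and WT capillary cells also differed in median depth and mitochondrial share, as given above, and the part of either in these differences was not tested.

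Some leading capillary genes were close in level between the genotypes and others were not. Fabp4 was 1.05-fold in KO over WT capillary cells (1.00 to 1.10), Cd36 0.849-fold (0.723 to 0.998), Meox2 0.953-fold (0.561 to 1.67) and Car4 0.863-fold (0.646 to 1.16). Lpl was further apart at 0.522-fold (0.420 to 0.650), as were Timp4 and Cox8b above and Rsad2 and Slfn5 below. Of 25 compared genes of the capillary list outside the rule, 2 were at least 2-fold higher in KO, Plvap and Slc9a3r2, and 0 were lower. Over all 1136 genes compared, 8.1% were at least 2-fold higher and 5.19% lower, so the higher count is near the share over all genes. The Plvap value rested on 54 KO UMIs and 1 WT UMI. With cells thinned to 1000 UMIs its sums were too small to give a fold, and its log2 ratio was set to 0.00. That value does not measure equal levels. Of 9 compared fatty acid genes 2 were at least 2-fold higher in KO, Pparg and Fabp5, and 1 was lower, the triglyceride lipase Pnpla2, beside the same shares over all genes. Fabp5 and Pnpla2 were each past 2-fold in 12 of 14 alternative settings.

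Rbp7, a retinol binding protein of capillary endothelium (chromosome 4, 149449687 to 149454978), was far apart between the genotypes. It had 853 CPM in KO capillary cells and 90.2 CPM in WT capillary cells (KO over WT 9.46, 4.24 to 26.2), against 35.2 CPM in other KO and 19.5 CPM in other WT cells (1.81). It was detected in 42 of 95 KO capillary cells and 3 of 51 WT capillary cells, against 62 of 1474 other KO cells and 12 of 353 other WT cells. At an equal depth of 500 UMIs per cell, 24.0% of KO and 3.78% of WT capillary cells would be expected to show it.

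Igfbp7, a secreted protein of vessel walls (chromosome 5, 77349240 to 77408041), had 2528 CPM in KO and 721 CPM in WT capillary cells (3.50, 2.59 to 4.83), against 548 CPM in other KO and 421 CPM in other WT cells (1.30). It was detected in 79 of 95 KO and 22 of 51 WT capillary cells, and at 500 UMIs per cell in an expected 60.3% of KO and 23.9% of WT capillary cells. Sparc, a collagen-binding matricellular protein, had 2571 CPM in KO and 1157 CPM in WT capillary cells (2.22, 1.74 to 2.87), while other cells had 1198 CPM in KO and 1204 CPM in WT.

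Pparg had 319 CPM in KO and 120 CPM in WT capillary cells (2.65, 1.25 to 6.47), with a UMI in 36 of 95 KO and 8 of 51 WT cells. Fabp5, a fatty acid binding protein related to Fabp4, had 1068 CPM in KO and 496 CPM in WT capillary cells (2.15, 1.48 to 3.23), against 140 CPM in other KO and 97.5 CPM in other WT cells. Of 7 compared genes of caveolae and the capillary diaphragm, 2 were at least 2-fold higher in KO, Plvap and Ehd2, beside 8.1% over all genes compared. All 7 had a ratio above 1, beside 608 of 1136 over all genes compared. Their median log2 ratio was 0.78 beside 0.06 over all genes compared. Plvap gave no fold after thinning. Ehd2, a coat protein of the caveolar neck, had 423 CPM in KO and 165 CPM in WT capillary cells (2.56, 1.35 to 5.37).

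Beside Rbp7 and Igfbp7, the 12 genes ranked highest in KO included Tagln2, S100a11, Slc9a3r2, Fxyd5 and Vim. Tagln2, an actin-binding protein, had 841 CPM in KO and 210 CPM in WT capillary cells (KO over WT between 2.30 and 7.50), against 704 and 515 CPM in other KO and WT cells. S100a11 had 657 CPM in KO and 135 CPM in WT capillary cells (4.85, 2.46 to 10.9). Slc9a3r2, a scaffold protein, had 792 CPM in KO and 225 CPM in WT capillary cells (3.51, 2.05 to 6.46), against 381 CPM in other KO and 337 CPM in other WT cells. Fxyd5 and Vim had KO over WT ratios of 8.17 (2.12 to 69.7) and 3.27 (2.07 to 5.41).

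The remaining 5 of the 12 were Mgp, Clu, Plvap, Cpe and Cytl1. Plvap rested on a very low WT count, as given above. The others rested largely on a few KO cells. Mgp, matrix Gla protein, had 2841 CPM in KO and 60.1 CPM in WT capillary cells, and 1 KO cell held 79.5% of the KO UMIs. In KO 6 capillary cells, and in WT 0, held at least 5 UMIs in sum of 6 genes of the other aortic cells, among them Mgp, Clu, Cytl1, Vwf and Bgn, and these 6 held 97.2% of the Mgp UMIs of KO capillary cells. Scrublet, which looks for barcodes that hold more than 1 cell, called none of the 6. Without them Mgp had 90.3 CPM in KO and 60.1 CPM in WT, Clu 104 CPM in KO and 60.1 CPM in WT, and the log2 KO over WT ratio of Cytl1 was -1.11 in place of 2.15. Rbp7 was then at 10.7 (4.79 to 29.7), Igfbp7 at 3.93 (2.91 to 5.41) and Sparc at 2.42 (1.90 to 3.13), and of 1037 genes then compared 68 stood 2-fold or more higher in KO and 46 lower.

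**Figure D5:**
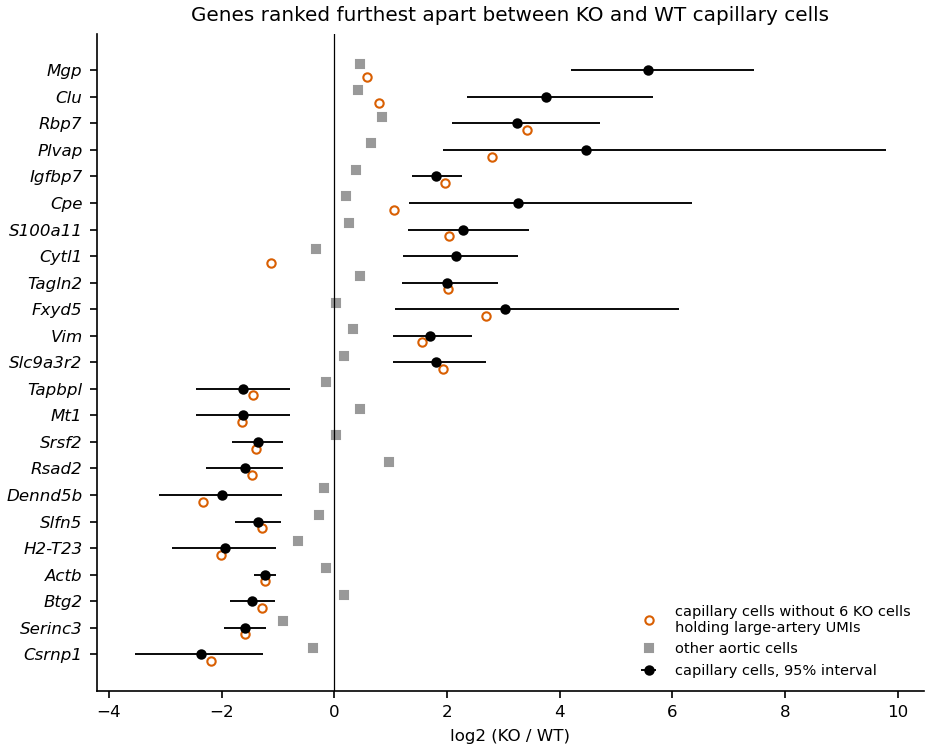
log2 of KO over WT (x axis) for the 12 genes ranked highest and 11 of the 12 ranked lowest in capillary cells: black points are capillary cells with exact 95% intervals, open orange points leave out the 6 KO cells holding large-artery UMIs, and grey squares are other aortic cells. Mgp, Clu and Cpe move close to the line of no difference without the 6 cells and Cytl1 crosses it, while Rbp7, Igfbp7 and the genes of the lower part stay near their first position.

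Genes lower in KO capillary cells included early response genes. All 16 compared immediate early and heat shock genes had a KO over WT ratio under 1, with a median log2 of -0.75, although only Btg2 was at least 2-fold lower; over all compared genes 528 of 1136 had a ratio under 1. In other aortic cells 9 of the same 16 genes had a ratio under 1, with a median log2 of -0.04, beside 1322 of 2977 over all genes compared there. Btg2, an antiproliferative early response gene, had 632 CPM in KO and 1728 CPM in WT capillary cells (0.366, 0.278 to 0.481), against 232 and 205 CPM in other KO and WT cells. Csrnp1, another early response gene, had 67.5 CPM in KO and 346 CPM in WT capillary cells (0.195, 0.0859 to 0.417).

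Interferon genes were lower in KO capillary cells only in part. Rsad2 had a KO over WT ratio of 0.332 (0.207 to 0.531), Ifit1 of 0.432 (0.264 to 0.706) and Isg15 of 0.449 (0.344 to 0.587), and Slfn5, which was not on the list, had 0.392 (0.294 to 0.523). Of 11 compared interferon genes Rsad2, Ifit1 and Isg15 were at least 2-fold lower, Gbp7 was at least 2-fold higher at 2.04 (0.768 to 6.83), and 7 in all had a ratio under 1. Over all 1136 genes compared in capillary cells, 5.19% were at least 2-fold lower, 8.1% were higher, and 528 had a ratio under 1. Over 14 alternative settings Ifit1 was past 2-fold in 11, with a fold of 1.38 after thinning, and Gbp7 in 8. In other aortic cells 9 of 10 compared interferon genes had a ratio above 1, none of them 2-fold, beside 1655 of 2977 over all genes compared there. Expected detection at 500 UMIs per cell was 10.7% of KO and 19.9% of WT capillary cells for Rsad2.

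Others among the 12 ranked lowest were of several kinds. Serinc3, a membrane protein, had 681 CPM in KO and 2029 CPM in WT capillary cells (0.336, 0.259 to 0.435), and its ratio was 0.531 in other aortic cells. Actb, cytoplasmic actin, had 2915 CPM in KO and 6824 CPM in WT capillary cells (0.427, 0.375 to 0.487), against 2527 and 2780 CPM in other KO and WT cells. H2-T23, a non-classical class I molecule, had a ratio of 0.263 (0.137 to 0.491) and shares 20.5% of its 3′ sequence with other genes. Srsf2 and Tapbpl had ratios of 0.389 and 0.327, and Mt1 had one of 0.327. Dennd5b was at 0.253, but 81.0% of its WT UMIs lay in 1 cell.

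The lungs of the same mice gave a second set of cells passing the same rule, 11 of 508 kept KO lung cells and 20 of 775 kept WT lung cells. Aortic capillary cells were compared with them within each genotype over 560 genes; 40 genes were at least 2-fold higher in the aorta in both genotypes, 7.14%, and 53 lower, 9.46%. CPM here are taken over the genes named in both tissues. Fabp4 had 36707 CPM in KO and 34933 CPM in WT aortic capillary cells, against 0 UMIs in the KO lung cells and 1640 CPM in the WT lung cells. Of the 76 WT lung UMIs of Fabp4, 63 came from 1 cell.

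Fabp5, Sgk1 and Hspb1 were also among the 8 ranked highest in the aorta. Fabp5 had 1071 CPM in KO and 498 CPM in WT aortic capillary cells, against 0 UMIs in the KO lung cells and 86.3 CPM in the WT lung cells. Timp4 of the rule had 0 UMIs in the lung cells of both genotypes, against 207 UMIs in KO and 38 UMIs in WT aortic capillary cells. Gpihbp1 differed less, with 3910 CPM in KO and 4269 CPM in WT aortic cells, against 3438 CPM in KO and 2612 CPM in WT lung cells.

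Several genes of the lung cells were not detected in the aortic capillary cells. Hpgd, which breaks down prostaglandins, had 0 UMIs in KO and WT aortic capillary cells, against 3401 CPM in KO and 3281 CPM in WT lung cells, at least 184-fold and at least 72.5-fold lower with a limit of 3 UMIs per library. Tmem100, Sema3c and Foxf1, a transcription factor of lung vessels, were likewise at 0 UMIs in both aortic libraries. Ace, angiotensin-converting enzyme, had 105 CPM in KO and 30.2 CPM in WT aortic capillary cells, against 1280 CPM in KO and 1317 CPM in WT lung cells.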

How the data were processed

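The authors deposited counts of UMIs for every gene and cell of 4 libraries. Per the submitters' processing notes they used Cell Ranger and the mm10 build, with version and annotation not given in the sources used here. A table had 31053 rows. Aortic tables name genes by symbol and lung tables by Ensembl identifier, of which 30934 matched GENCODE M21 and 119 did not. Deposited depth was 4483756 UMIs in 1623 barcodes of the KO aorta and 1034161 UMIs in 449 barcodes of the WT aorta, of which 54 and 45 barcodes were left out.

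UMIs were summed over capillary cells and over other kept cells per library and divided by the sum's total (CPM). CPM have exact Poisson, ratios exact conditional and shares exact Clopper-Pearson 95% intervals; a sum of 0 was given a limit of 3 UMIs per library. Genes entered when the sums averaged 50 CPM or more and held 30 UMIs or more together, and at least 2-fold was counted as a description of size. Cells of several mice share a library with no label of the mouse, so spread between mice cannot be given.

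Named genes are the rule genes, Pou5f1, the 15 highest and 15 lowest genes between capillary and other cells, the 12 highest and 12 lowest between genotypes and the 8 highest and 8 lowest between tissues, ranked by whichever interval bound lay nearer to 1, in the weaker library where there are 2, without mitochondrially encoded, ribosomal, haemoglobin and unnamed genes and, except between capillary and other cells, without markers of non-endothelial cells; and the 2 highest and 2 lowest of each of 25 gene lists. Not all of them are printed, and some items are not reported here. Pparg, Aqp7, Kcna5, Cdkn1a, Nos3, Klf2, Sparc, Pecam1, Cdh5, Cldn5 and single list members beyond these were chosen after their values were seen. The cells, the lists and the alternatives were chosen with earlier results of these data known.

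No doublets were removed; Scrublet in scanpy 1.11.5 called 4 KO cells (0.255%) and 4 WT cells (0.990%), none of them capillary. For KO that is under 0.5%, so the caller may not have worked, and its removal was tried only as an alternative. No correction for free RNA was made. Detection at 500 UMIs is the expected share of cells with a UMI after drawing 500 UMIs from each. Shared 3′ sequence is the percent of 50-base words of the last 300 bases of a gene's transcripts found in other genes, computed for 276 genes. Promoters came from RefSeq on GRCm38.p6. Python 3.11.15, numpy 2.4.6, pandas 2.3.3 and scipy 1.17.1 were used, and the comparison was tested on simulated data.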

Additional observations from a re-analysis of the deposited data

Results flagged for a closer look

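In 5 genes the KO over WT ratio lay on opposite sides of 1 in capillary and in other aortic cells, at least 2-fold in capillary and at least 1.25-fold in other cells, with both counting intervals off 1; the difference itself was not tested, and there is 1 library per group. Ctnnbip1, an inhibitor of beta-catenin, was 2.01 in capillary cells and 0.726 in other cells. Cytl1 was 4.45 in capillary cells and 0.797 in other cells, and its capillary value turned without 6 KO cells. Dnajb1, a heat shock protein, was 0.400 in capillary cells and 1.33 in other cells. Mt1, a metallothionein, was 0.327 in capillary cells and 1.36 in other cells. Tubb4b, a tubulin, was 0.439 in capillary cells and 1.26 in other cells. Among the 1060 genes compared in both kinds of cells, 20 had opposite directions with both intervals off 1 and 88 had the same direction.

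Smarca5, a chromatin remodeller, was the gene at least 2-fold apart between capillary and other cells in opposite directions in the libraries, 0.481 in KO and 2.59 in WT, from 6 KO and 11 WT capillary UMIs; this was not tested either.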

How the results depend on the processing

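Depth and the number of cells limit most values: the WT capillary sum comes from 51 cells. No paired analysis was possible because each group is 1 library and no test was run. Of the values of single genes over all settings, 4393 moved by less than their counting interval, 366 moved by more, and 7 that had been at least 2-fold apart changed sign; of 1387 values under 2-fold apart, counted among those that moved less or more, 67 changed sign and are not listed singly. The KO share of capillary cells was 5.63% with at least 1000 UMIs per cell, 4.79% when those cells were also thinned to 1000 UMIs and 8.29% without cells holding UMIs of other cell types. The WT share was 8.91% with 5 of the 8 genes required, 8.73% with at least 1000 UMIs per cell and 8.73% with thinning. Genes at least 2-fold higher in capillary cells numbered 96 of 1678 after thinning, 370 with a filter of 20 CPM and 10 UMIs and 109 with one of 100 CPM and 60 UMIs, and lower ones 142 with the stricter filter. Genes at least 2-fold higher in KO than in WT capillary cells numbered 140 with 3 of the 8 genes required, 36 of 474 after thinning, 546 with the looser and 35 with the stricter filter, and lower ones 30, 297 and 24 under the last 3 settings. With median-of-ratios scaling 173 genes were higher and 320 lower in capillary cells, and 112 higher and 42 lower in KO, the median log2 KO over WT of compared genes being 0.17 in place of 0.06. Of values at least 2-fold apart, the log2 values that reversed were those of Hba-a2 (0.87) and Hbb-bs (1.23) in WT capillary over other cells with 3 of the 8 genes, Acta2 there (0.24) without cells holding other types' UMIs, Dennd5b in KO over WT (0.17) without the highest cell of each sum, and Cytl1 in KO over WT with 5 of the 8 genes (-0.10), after thinning (-1.97) and, chosen after seeing the data, without the 6 cells holding large-artery UMIs (-1.11); the cause was not tested. Of the 12 genes ranked highest in KO, 6 stayed at least 2-fold higher under all settings (not Clu, Cpe, Cytl1, Mgp, Plvap and Vim), and of the 12 lowest 8 stayed at least 2-fold lower (not Actb, Btg2, Dennd5b and Mt1). Of the 15 genes lowest in capillary cells 13 stayed at least 2-fold lower (not Acta2 and Tagln).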

Other observations

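In the WT lung library 1 cell passing the rule held 6 of the 8 rule genes and 63 UMIs of Fabp4 among 1990, with 0 UMIs of Hpgd, Tmem100, Foxf1 and Ace. A barcode of 1 KO lung cell passing the rule also occurred in the KO aortic library, where it belonged to a cell outside the rule.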
